A study of Mus musculus with 18 samples.

Results

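The comparison set white adipose tissue of 3 obese mice given prednisone every day against that of 3 obese mice given vehicle. These are 6 of the 9 adipose libraries and of the 18 libraries of the study, in which 3 further mice received prednisone once a week and quadriceps muscle of each mouse was also sequenced. All mice were DBA/2J males. The labels give their age as about 20 weeks, which the treatment protocol ties to the injections that followed 12 weeks of high-fat diet. The diet went on through the 12 weeks of injections, and an age at collection is not given apart from this. The daily group received 1 mg/kg prednisone into the peritoneum every day, the weekly group the same dose once a week, and the vehicle group daily injections of the carrier, and the tissues were collected 24 hours after the final dose. DBA/2J is an inbred strain, so strain differences are not sampled. The labels do not say which fat depot was taken. Labels and table both give 3 daily adipose libraries, although the text on the study design counts 2. Of 33641 gene symbols in the table, 14150 reached 1 TPM (transcript abundance scaled for length, with the same total in every library) in at least 3 adipose libraries and were tested.

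Prednisone is converted in the body to prednisolone, which binds the glucocorticoid receptor. The receptor then enters the nucleus and raises or lowers transcription of genes near its binding sites. In fat, glucocorticoids act on adipocytes, where they are known to influence differentiation, lipolysis and lipogenesis, and on macrophages and stromal cells, where they are known to restrain inflammatory genes. Thrombospondin-1, encoded by Thbs1, is a matrix glycoprotein secreted by adipocytes and other cells that can activate latent transforming growth factor beta.

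The samples carried the transcripts of white fat. Fabp4, the fatty acid binding protein of adipocytes, stood at 21663 to 23864 TPM after daily prednisone and at 23026 to 25113 TPM after vehicle, and Adipoq, the hormone adiponectin, at 2877 to 3165 TPM after daily prednisone and 3033 to 3328 TPM after vehicle. All 22 adipocyte identity genes were measured and tested. Of 22 markers of epididymis and testis, organs that adjoin gonadal fat, 0 were tested and 13 were listed at 0 in every adipose library. Between 13413 and 14076 genes reached 1 TPM in a library, and correlations across genes were 0.976 to 0.990 within groups and 0.970 to 0.985 between groups. Daily library 2 stood apart in skeletal muscle transcripts. Its 23 skeletal muscle markers summed to 1396 TPM, against 335 and 362 TPM in daily libraries 1 and 3 and 314 to 469 TPM in vehicle libraries. For several results that moved with that library, but not for all, values without it are also given. Library 3 held the middle value of its group for 44.3% of genes above the median level in daily, 54.6% in weekly and 53.8% in vehicle libraries, more often than library 1 or 2 of the same group. With library 3 of every adipose group left out, 0 genes were called between daily and vehicle.

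Few genes separated the daily and vehicle groups beyond the spread between mice. With limma and Benjamini-Hochberg adjustment over all genes tested, 1 gene was called at an adjusted p under 0.05, which is 0.00707% of the 14150. That gene was Thbs1, which rose, and 0 genes fell. At an unadjusted p under 0.05, 632 genes (4.47%) were higher and 673 (4.76%) lower after daily prednisone, together 9.22%. That split depended on scaling and on daily library 2. It was 1043 higher and 319 lower with mitochondrial genome genes removed, and 1095 higher and 555 lower without daily library 2. The 3 daily values lay wholly above or below the 3 vehicle values for 2206 genes (15.6%), 1084 above and 1122 below. The median log2 fold change was 0.01, and 90% of genes differed by less than 0.33 on the log2(TPM + 1) scale. In the same fit 44 genes (0.311%) differed between daily and weekly prednisone and 1052 (7.43%) between weekly prednisone and vehicle. The weekly and daily contrasts share the 3 vehicle libraries, so their values stand side by side here and are not independent.

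**Figure D1:**
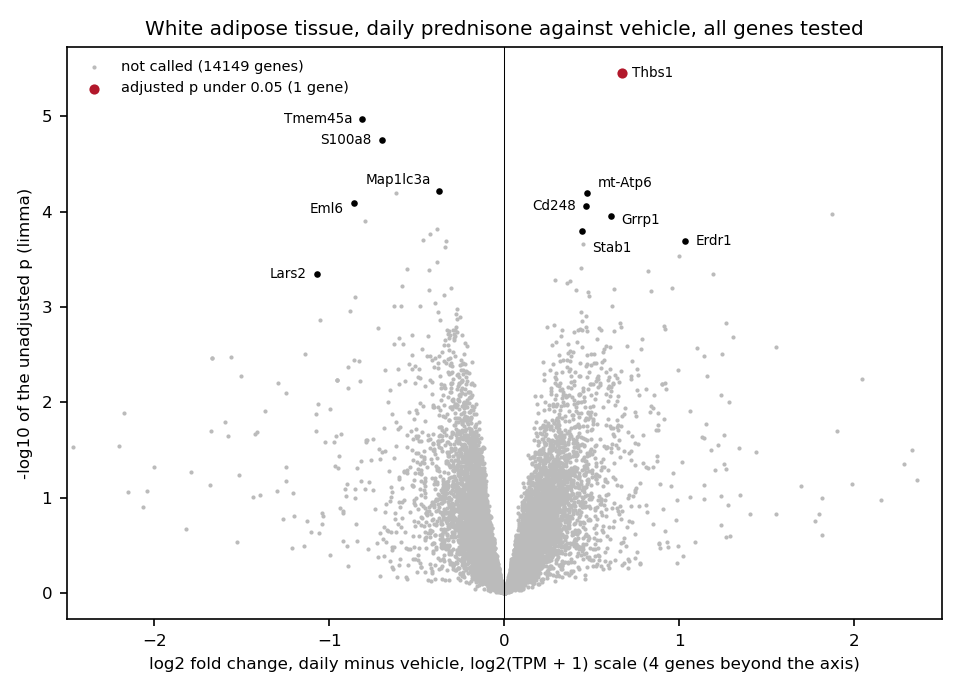
Each point is 1 of the 14150 genes tested, placed by its log2 fold change (daily minus vehicle, x axis) and by the −log10 of its unadjusted p from limma (y axis). Thbs1, in red, is the 1 gene called, and 10 of the other genes named for their largest differences are labelled in black.

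Thbs1 stood at 58.4, 51.8 and 58.2 TPM in daily libraries, against 33.9, 35.7 and 34.8 TPM in vehicle libraries. All 3 daily libraries were above all 3 vehicle libraries, and the lowest daily value exceeded the highest vehicle value by several times the vehicle spread. The mean was 56.1 ± 3.77 TPM after daily prednisone and 34.8 ± 0.882 TPM after vehicle (SD, n = 3 each), a log2 fold change of 0.67 ± 0.07 (SE) with a limma adjusted p of 0.0498. Thbs1 lies at chr2:118111876-118127133 on the plus strand of GRCm38. Of its 2 transcripts in the table, ENSMUST00000039559.8 carried 51.0 to 58.0 TPM of the gene after daily prednisone and 33.9 to 34.8 TPM after vehicle. The other never exceeded 1.28 TPM in these 6 libraries.

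The call of Thbs1 sat at the threshold and depended on the setting, while the size of its difference was steady. Over 24 alternative settings the log2 fold change ranged between 0.62 and 0.73 and Thbs1 was called in 12. Its highest limma adjusted p among them, 0.999985, came with library 3 of every adipose group left out, above every value with 1 library left out. Its adjusted p was 0.00587 with TMM scaling and 0.0171 with quantile normalization, and 0.0538 when only the 6 libraries compared were fitted. Leaving out 1 adipose library at a time gave adjusted p-values of 0.0279 to 0.375 and kept the call in 3 of 9 cases, among them the case without daily library 2 (0.0279, log2 fold change 0.73). The call was lost without daily library 1 (0.178), daily library 3 (0.375), vehicle library 2 (0.143), vehicle library 3 (0.118), weekly library 1 (0.0511) and weekly library 3 (0.15). The weekly group stood higher still, at 110.1, 98.7 and 100.4 TPM. Daily libraries were below weekly libraries by 0.87 ± 0.07 on the log2 scale (limma adjusted p 0.00378), and all 3 groups were free of overlap. In quadriceps the daily difference of Thbs1 was 0.37 ± 0.14 (limma adjusted p 0.103), and the difference between the tissues, 0.30 ± 0.16, was not called (limma adjusted p 0.439).

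**Figure D2:**
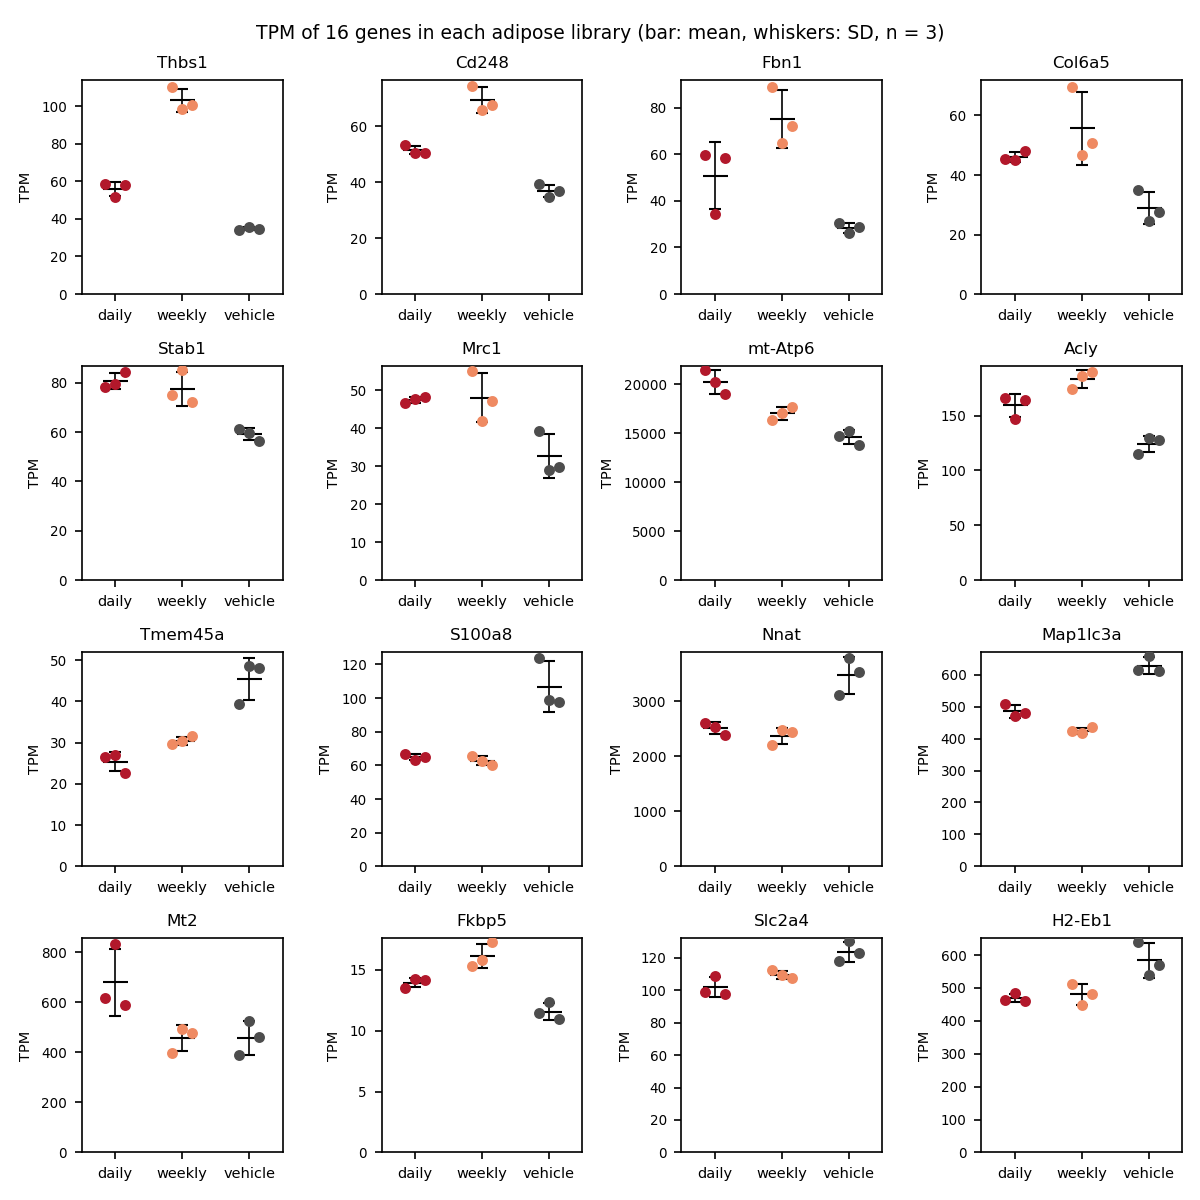
TPM of 16 genes in each adipose library (daily, weekly and vehicle, 3 points each, with mean and SD on a linear axis from 0). Thbs1 is the 1 gene of the 16 called between daily and vehicle. Its 3 groups do not overlap, while for Mrc1 and Stab1 the daily and weekly points do.

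The next largest differences did not pass the adjusted test. They were picked as the 12 genes per direction with the smallest p whose groups did not overlap and whose mean was at least 5 TPM, and 23 of the 24 were not called, with adjusted p-values up to 0.251. Among the genes with more transcript after daily prednisone were genes of the stroma and of macrophages. Cd248, the endosialin of pericytes and fibroblasts, stood at 53.3, 50.7 and 50.6 TPM in daily libraries, against 39.3, 34.9 and 36.9 TPM in vehicle libraries (log2 fold change 0.47 ± 0.07, limma adjusted p 0.154). Stab1, the scavenger receptor stabilin-1 of resident macrophages, stood at 78.2, 79.5 and 84.2 TPM after daily prednisone, against 61.2, 59.7 and 56.4 TPM after vehicle (0.44 ± 0.08). For both, every daily library lay above every vehicle library, which was a condition of the selection.

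The other genes on the higher side, apart from 2 of the mitochondrial genome, were of varied kinds. Acly, the ATP citrate lyase that makes acetyl-CoA for lipogenesis, averaged 159 ± 10.7 TPM after daily prednisone and 124 ± 7.54 TPM after vehicle (SD, n = 3 each). Hilpda, a lipid droplet protein that inhibits adipose triglyceride lipase, averaged 95.7 ± 2.61 TPM after daily prednisone and 73.7 ± 3.54 TPM after vehicle (SD, n = 3 each). Hilpda was 71.6 to 84.1 TPM after weekly prednisone, so its weekly libraries were below the daily ones, with no call between them (limma adjusted p 0.185). Enpep, the aminopeptidase A that cleaves angiotensin II, stood at 32.0 to 32.6 TPM after daily prednisone and 21.4 to 24.5 TPM after vehicle. Atp6v0d2, a subunit of the lysosomal proton pump, stood at 20.5 to 22.0 TPM after daily prednisone and 10.8 to 16.5 TPM after vehicle. Dnm1, a dynamin GTPase, was 19.3 to 22.0 TPM after daily prednisone and 14.5 to 16.1 TPM after vehicle. Grrp1 averaged 22.0 ± 2.75 TPM after daily prednisone and 14.0 ± 0.858 TPM after vehicle (SD, n = 3 each). Erdr1, whose reads may be shared with near-identical copies, had the widest gap of the group at 244, 149 and 194 TPM after daily prednisone, against 103, 92.4 and 85.4 TPM after vehicle (1.03 ± 0.18), and its daily libraries also spread the most.

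The lower side was led by Tmem45a, a transmembrane protein gene on chromosome 16. It stood at 26.5, 27.0 and 22.7 TPM in daily libraries, against 39.5, 48.7 and 48.0 TPM in vehicle libraries (−0.81 ± 0.10, limma adjusted p 0.0756). S100a8, a calcium-binding protein abundant in neutrophils and monocytes, stood at 66.6, 63.4 and 64.9 TPM after daily prednisone, against 124, 99.0 and 97.6 TPM after vehicle (−0.70 ± 0.09, limma adjusted p 0.0828). Groups without overlap were a condition of the selection, and neither gene was called. Blood cell markers summed to 5632 to 6596 TPM in daily libraries, against 9270 TPM in vehicle library 1, the highest vehicle library for S100a8, and 5255 and 6505 TPM in vehicle libraries 2 and 3. Mast cell and granulocyte markers, of which S100a8 is one, summed to 177 to 193 TPM in daily libraries, against 249 TPM in vehicle library 1 and 174 and 196 TPM in vehicle libraries 2 and 3. The median of that list had the opposite sign to S100a8, at 0.27, or 0.07 without vehicle library 2. Of its 11 tested members 6 had a positive and 5 a negative log2 fold change. At an unadjusted p under 0.05, 0 were higher and 2 lower. Of 9 tested blood cell markers 7 had a negative log2 fold change and 0 passed an unadjusted p under 0.05, with a median of −0.23 that was 0.02 without vehicle library 1. Without that library the difference of S100a8 was −0.59 (limma adjusted p 0.0197). Tmem45a was called in 4 and S100a8 in 2 of the 24 alternative settings. Weekly libraries were also low, at 29.5 to 31.5 TPM for Tmem45a and 60.1 to 65.3 TPM for S100a8.

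Nnat, an imprinted proteolipid gene, stood at 2604, 2541 and 2385 TPM after daily prednisone and at 3109, 3781 and 3524 TPM after vehicle (−0.46 ± 0.08). Map1lc3a, an LC3 protein of autophagosomes, stood at 509, 469.5 and 479.6 TPM after daily prednisone, against 616, 659 and 611 TPM after vehicle. The 2 glutathione enzymes in the group, Mgst3 and Gsta4, averaged 181 ± 13 and 68.0 ± 6.59 TPM after daily prednisone, against 229.9 ± 0.123 and 89.0 ± 0.474 TPM after vehicle (SD, n = 3 each). Higd1a, a small hypoxia-inducible protein of mitochondria, was 106 to 113 TPM after daily prednisone, against 132 to 164 TPM after vehicle, and Hebp1, a heme-binding protein, was 275 to 277 TPM after daily prednisone, against 334 to 372 TPM after vehicle. Eml6, Smim4 and the histone gene Hist2h2aa2, which shares reads with a near-identical copy, differed by −0.86, −0.43 and −0.39. Lars2, the mitochondrial leucyl-tRNA synthetase, had the largest log2 difference of the 24, at 220.5, 307 and 143 TPM after daily prednisone, against 439, 453 and 453 TPM after vehicle (−1.07 ± 0.21, limma adjusted p 0.228). Part of the Lars2 transcript resembles mitochondrial ribosomal RNA in mouse, so its value is uncertain.

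Direct targets of the glucocorticoid receptor gave small differences. Of 31 tested target genes 0 were called, 6 were higher and 2 lower at an unadjusted p under 0.05, and the median was 0.12, or 0.06 without vehicle library 1, beside 0.01 over all genes. Fkbp5, a co-chaperone that the receptor induces and that dampens it in turn, stood at 13.5, 14.2 and 14.2 TPM in daily libraries, against 11.4, 12.3 and 11.0 TPM in vehicle libraries (0.25 ± 0.09, limma adjusted p 0.435). Its groups did not overlap, and its weekly values were higher again at 15.3 to 17.3 TPM. Tsc22d3, the leucine zipper protein GILZ that mediates anti-inflammatory effects of the hormone, was 78.6, 96.8 and 80.4 TPM after daily prednisone, against 87.0, 109.5 and 102 TPM after vehicle, with overlap. Per1, Klf9, Sgk1 and Zbtb16, further induced genes of the textbook set, each overlapped between daily and vehicle, with log2 fold changes of −0.05, 0.04, 0.21 and −0.24. Klf15, a transcription factor that the receptor induces in many tissues, was on the lower side at 22.2, 21.2 and 22.9 TPM after daily prednisone, against 24.2, 33.0 and 33.8 TPM after vehicle (−0.42 ± 0.12). Tissue was taken a full dosing interval after the last daily injection, and how levels stood nearer to an injection was not measured.

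The receptor and the enzyme that supplies it differed little. Nr3c1, the glucocorticoid receptor itself, stood at 33.7, 28.3 and 33.4 TPM after daily prednisone and at 29.1, 35.5 and 33.6 TPM after vehicle. Its difference of −0.04 ± 0.11 turned positive under 5 settings, with values up to 0.04. Hsd11b1, which converts inactive steroid precursors such as prednisone to their active forms inside cells, stood at 78.4, 85.4 and 83.5 TPM after daily prednisone, against 90.2, 103 and 96.3 TPM after vehicle (−0.22 ± 0.08, limma adjusted p 0.466). Its weekly libraries were lower, at 67.6, 56.2 and 60.0 TPM. Of the 17 tested genes of the receptor, its chaperones and steroid activation, 0 were higher and 2 lower at an unadjusted p under 0.05, Hsd11b1 and the chaperone Hspa8.

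Mt1 and Mt2 encode metallothioneins, small proteins that bind zinc and copper and are inducible by metals and glucocorticoids. These genes set the daily group apart from both others without a call. Of the 5 tested genes of the metallothionein list 4 had a positive and 1 a negative log2 fold change against vehicle. The median of that list was −0.04 for daily minus weekly. Mt2 stood at 619, 834 and 589 TPM in daily libraries, at 396, 492 and 479 TPM in weekly libraries and at 390.2, 525 and 462 TPM in vehicle libraries. Mt1 stood at 686, 848 and 607 TPM in daily, 439, 564 and 553 TPM in weekly and 489, 557 and 535 TPM in vehicle libraries. For both genes every daily library lay above every weekly and every vehicle library, with daily library 2, the one with muscle transcripts, the highest. Daily and vehicle groups did not overlap for 15.6% of all genes tested. The log2 fold changes against vehicle were 0.56 ± 0.15 (limma adjusted p 0.33) for Mt2 and 0.42 ± 0.13 (0.353) for Mt1. Both kept their sign in all 24 alternative settings, at 0.40 to 0.66 and 0.28 to 0.55. Leaving out libraries could not turn the sign, because the daily and vehicle groups did not overlap. Without daily library 2 the values were 0.40 and 0.29. In quadriceps Mt2 was higher after daily prednisone by 1.24 ± 0.25 (limma adjusted p 0.015), and the difference between the tissues, adipose minus muscle −0.68 ± 0.35, was not called (limma adjusted p 0.429).

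The 250 bases before the RefSeq starts of both genes on GRCm38.p6 are shown because the pair lie next to each other on chromosome 8 and stood high in the same libraries. Capitals mark the core of the metal response element (TGCACNC or TGCGCNC, either strand) and the core of the glucocorticoid response element (ACANNNTGT, which reads alike on both strands). Both the genes and the metal core were chosen for this display after the values were seen. The counts of cores given below describe the sequences, and a part of them in the daily difference was not tested.
Mt1, chr8:94178839-94179088, plus strand: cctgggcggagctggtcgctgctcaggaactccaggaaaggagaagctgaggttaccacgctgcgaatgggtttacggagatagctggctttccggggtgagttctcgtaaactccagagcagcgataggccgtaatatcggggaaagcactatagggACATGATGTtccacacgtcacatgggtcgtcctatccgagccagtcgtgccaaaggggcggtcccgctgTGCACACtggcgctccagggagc
Mt2, chr8:94172368-94172617, plus strand: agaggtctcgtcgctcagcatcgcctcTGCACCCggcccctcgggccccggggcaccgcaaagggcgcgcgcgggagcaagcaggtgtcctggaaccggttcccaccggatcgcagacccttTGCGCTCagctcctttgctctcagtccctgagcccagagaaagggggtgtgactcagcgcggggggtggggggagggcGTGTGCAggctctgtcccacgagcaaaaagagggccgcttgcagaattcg
Mt1 holds a metal core 23 bases and a receptor core 92 bases before its start. Mt2 holds metal cores 223, 128 and 50 bases before its start. Counted to 50 bases past the start, Mt1 holds 3 metal cores and Mt2 holds 4. Of 32851 promoter windows of this length, 25.7% hold at least 1 metal core, 1.97% at least 3 and 0.517% at least 4. The receptor core occurs in 6.85% of windows and in 5.21% of the 10123 tested genes that have one. Among 15 of the 24 largest-difference genes with a window, 1 held it, S100a8, after its start.

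**Figure D3:**
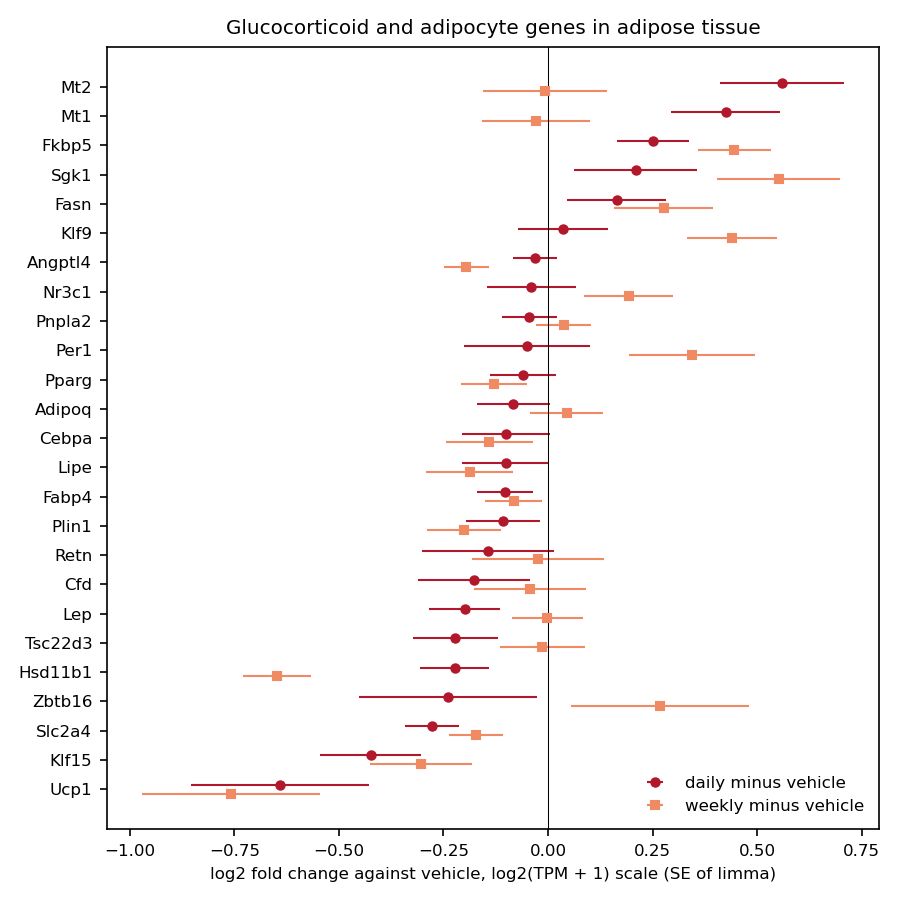
Log2 fold change with SE from limma for 25 glucocorticoid and adipocyte genes, daily minus vehicle (circles) and weekly minus vehicle (squares), which share the vehicle libraries. Mt2 and Mt1 have the highest daily values with weekly values near 0, and Hsd11b1 has a weekly value of −0.65 beside a daily value of −0.22.

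In a panel of 25 glucocorticoid and adipocyte genes 0 were called, the smallest adjusted p was 0.313, and the groups of 6 did not overlap, beside 15.6% of all genes tested. At an unadjusted p under 0.05, 3 panel genes were higher and 5 lower. Slc2a4, the insulin-responsive glucose transporter GLUT4, stood at 99.2, 109 and 97.6 TPM in daily libraries, against 118, 130.3 and 123 TPM in vehicle libraries (−0.28 ± 0.06, limma adjusted p 0.313), with no overlap. Lep, the satiety hormone leptin, averaged 1248 ± 129 TPM after daily prednisone and 1430.0 ± 93.6 TPM after vehicle (SD, n = 3 each), with overlap. Rbp4, a retinol carrier secreted by fat, was 242 to 258 TPM after daily prednisone, against 265 to 368 TPM after vehicle. Ucp1, the uncoupling protein of thermogenic fat, was 45.7, 59.6 and 43.0 TPM after daily prednisone, against 113, 57.0 and 70.0 TPM after vehicle. The groups overlapped, as daily library 2 lay above vehicle library 2, and the vehicle libraries of Ucp1 spread widely. Of 22 adipocyte identity genes 0 were higher and 2 lower at an unadjusted p under 0.05, Slc2a4 and Car3, a carbonic anhydrase. The list median was −0.10, and it was −0.02 under quantile normalization, −0.05 with mitochondrial genome genes removed, −0.17 without vehicle library 1 and −0.03 without vehicle library 2.

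Genes of lipid synthesis gave small differences. Of 20 lipogenesis genes 17 had a positive log2 fold change, 2 were higher and 0 lower at an unadjusted p under 0.05, and the median was 0.12, or 0.06 without vehicle library 1. Those 2 were Acly and Elovl3, an elongase of very long fatty acids. Elovl3 stood at 8.05, 8.51 and 7.44 TPM in daily, 3.33, 3.87 and 3.92 TPM in weekly and 5.07, 4.70 and 6.51 TPM in vehicle libraries. It was called between daily and weekly (0.94, limma adjusted p 0.0265) and not between daily and vehicle (0.49 ± 0.13, 0.331). Of 19 triglyceride synthesis genes 10 had a positive and 9 a negative log2 fold change, with a median of 0.02 that was 0.11 under quantile normalization and turned negative without daily library 1 or vehicle library 1. Of 24 tested cholesterol synthesis genes 3 were higher and 3 lower at an unadjusted p under 0.05. Gpat3, which starts triglyceride synthesis and was the 1 gene of its list at that p, followed the same order, at 69.7 ± 1.85 TPM after daily prednisone, 51.8 TPM after weekly prednisone and 57.6 ± 3.57 TPM after vehicle (mean, with SD and n = 3). It too was called between daily and weekly (0.42, limma adjusted p 0.0377). These were the 2 genes with more transcript after daily than weekly prednisone among the 44 called, while 42 had less. Fasn, the fatty acid synthase, overlapped between daily and vehicle.

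Of 25 tested genes of lipolysis and lipid droplets 2 were higher and 5 lower at an unadjusted p under 0.05, with a median of −0.10. That median was −0.04 under quantile normalization, −0.05 with mitochondrial genome genes removed, −0.19 without vehicle library 1 and −0.02 without vehicle library 2. Lipe and Pnpla2, the hormone-sensitive and adipose triglyceride lipases, overlapped between groups, and the sign of their small differences turned under quantile normalization, and that of Pnpla2 also with mitochondrial genome genes removed. Ces1f, a carboxylesterase, stood at 41.9 to 47.3 TPM in daily libraries and 56.6 to 61.9 TPM in vehicle libraries (−0.37 ± 0.10, limma adjusted p 0.33). Ffar2, a receptor for short-chain fatty acids that restrains lipolysis, stood at 68.3 to 80.1 TPM after daily prednisone and 84.1 to 100.3 TPM after vehicle. Neither pair of groups overlapped. Of 30 fatty acid oxidation genes 0 were higher and 5 lower at an unadjusted p under 0.05, and their median of −0.04 turned positive, to 0.01, under quantile normalization and after removing mitochondrial genome genes.

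Transcripts of the mitochondrial genome took a larger share of the daily libraries. The 13 genes summed to 169437, 152523 and 165537 TPM after daily prednisone, against 135297, 129196 and 129607 TPM after vehicle. That was 15.3% to 16.9% of all TPM after daily prednisone, 14.45% to 14.77% after weekly prednisone and 12.9% to 13.5% after vehicle, without overlap. Between daily and vehicle, 10 of the 13 genes were higher and 0 lower at an unadjusted p under 0.05. Of the 13, 0 were called, and the median was 0.27, or 0.17 under quantile normalization. mt-Atp6, a subunit of ATP synthase, stood at 21469.5, 20216 and 19044 TPM after daily prednisone, against 14749.8, 15193 and 13834 TPM after vehicle (0.47 ± 0.07, limma adjusted p 0.151). mt-Nd4, a subunit of complex I, was 10574 to 11144 TPM after daily prednisone, against 8782 to 9105 TPM after vehicle. Nuclear copies of mitochondrial sequence can share reads with these genes. Because TPM has a fixed sum, a larger mitochondrial share lowers every other value, and with these 13 genes removed the median over all genes moved to 0.06.

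Nuclear genes of the respiratory chain and ATP synthase had the opposite sign. All 52 had a negative log2 fold change and 0 were called. At an unadjusted p under 0.05, 18 were lower and 0 higher, beside 4.76% lower over all genes tested. The list median was −0.13. The median stayed negative at −0.08 with mitochondrial genome genes removed and −0.05 with quantile normalization, and was −0.17 without daily library 2. Ndufs8, a core subunit of complex I, stood at 118, 119.6 and 113 TPM in daily libraries, against 136, 136 and 130.3 TPM in vehicle libraries (−0.20 ± 0.06). Ndufa2, an accessory subunit, was 354 to 398 TPM after daily prednisone, against 407 to 526 TPM after vehicle. For both genes the groups did not overlap. Summed over the list, daily libraries held 22730.2, 24244 and 22148 TPM and vehicle libraries 26954, 24314 and 25102 TPM, so daily library 2 came near vehicle library 2. After weekly prednisone the list median against vehicle was −0.22, with 11 genes called lower. Of 25 genes of the tricarboxylic acid cycle 0 were higher and 5 lower, and of 27 proteasome subunits 0 were higher and 6 lower at an unadjusted p under 0.05. The counts of these lists are from the main scaling. Over all genes the number lower at that p fell from 673 to 319 with mitochondrial genome genes removed. The medians were −0.08 for both lists. That of the cycle was −0.03 with mitochondrial genome genes removed and changed sign under quantile normalization, and that of the proteasome was −0.03 and −0.02 under the same 2 scalings.

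**Figure D4:**
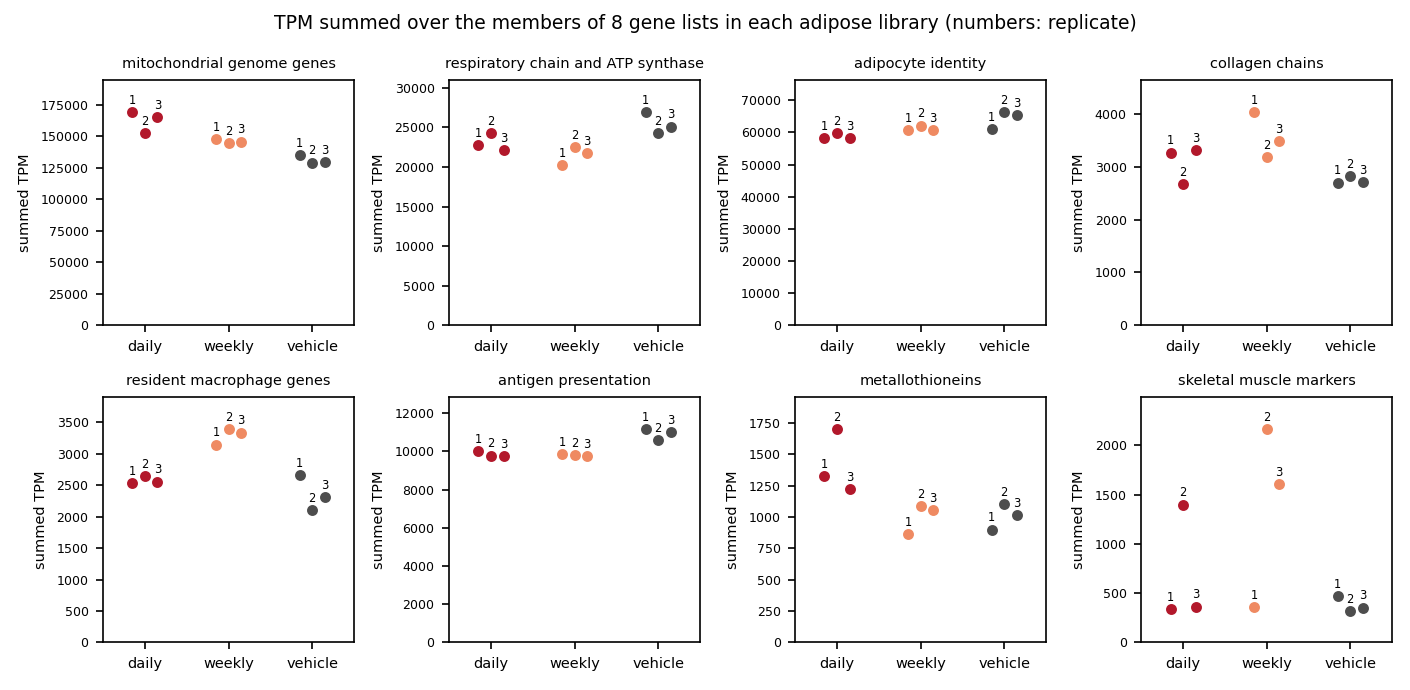
TPM summed over the members of 8 gene lists in each adipose library (daily, weekly and vehicle, numbered by replicate, linear axes from 0). The mitochondrial genome and metallothionein sums of all 3 daily libraries lie above those of vehicle, and skeletal muscle markers stand out in daily library 2 and weekly libraries 2 and 3.

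Matrix genes other than Thbs1 mostly had positive differences, none of them called. Of 47 tested matrix and fibrosis genes 7 were higher and 0 lower at an unadjusted p under 0.05, 1 of them called, Thbs1, and the median was 0.07. Of 22 collagen chains 5 were higher and 0 lower, with a median of 0.15. Fbn1, the microfibril protein fibrillin-1 whose cleaved end is the hormone asprosin, stood at 59.9, 34.2 and 58.5 TPM in daily libraries, against 30.5, 26.0 and 28.6 TPM in vehicle libraries (0.78 ± 0.20, limma adjusted p 0.33). Daily library 2 was the low one and lay near the vehicle values, and without it the difference of Fbn1 was 1.04 (limma adjusted p 0.0585). Col6a5, a chain of microfibrillar collagen, was steadier at 45.3, 45.0 and 48.0 TPM after daily prednisone, against 34.8, 24.6 and 27.4 TPM after vehicle (0.67 ± 0.16). Col5a3 stood at 277 TPM in each daily library and at 212, 228 and 208 TPM in vehicle libraries (0.36 ± 0.10). Postn, the matrix protein periostin, was 130.3 to 169 TPM after daily prednisone, against 77.0 to 122 TPM after vehicle. The medians hung on single daily libraries. That of the matrix and fibrosis list was 0.18 without daily library 2, 0.03 without daily library 1 and 0.02 with library 3 of every group left out, and 0.12 with mitochondrial genome genes removed. That of collagens was 0.29 without daily library 2, 0.09 without daily library 1, 0.10 without daily library 3 and 0.08 with library 3 of every group left out. In bulk tissue more cells of a type and more RNA per cell cannot be told apart.

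Stromal progenitor markers gave 8 higher and 1 lower of 24 at an unadjusted p under 0.05, with a median of 0.16. Anxa3 was 66.4 to 70.0 TPM after daily prednisone and 50.3 to 59.8 TPM after vehicle. The chemokine Cxcl14 was the lower one, at 19.7 to 20.8 TPM after daily prednisone, against 27.6 to 31.1 TPM after vehicle (−0.52 ± 0.14, limma adjusted p 0.33). Endothelial markers had 0 higher and 2 lower of 24, and their median of −0.03 changed sign under 2 of 3 scalings tried and without daily library 2 or vehicle library 3. Aqp1, a water channel of capillaries, was one of them, at 68.9 to 93.5 TPM after daily prednisone, against 103 to 121 TPM after vehicle.

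Macrophage genes mostly had positive differences, with 0 called. Of 25 macrophage markers 7 were higher and 0 lower at an unadjusted p under 0.05, with a median of 0.23, or 0.13 without vehicle library 2. Of 18 resident macrophage genes 7 were higher and 0 lower, with a median of 0.22. Mrc1, the mannose receptor, stood at 46.7, 47.6 and 48.2 TPM in daily libraries, against 39.4, 29.0 and 29.8 TPM in vehicle libraries (0.54 ± 0.13, limma adjusted p 0.313). Clec10a, a galactose lectin, stood at 83.3, 80.2 and 79.0 TPM after daily prednisone, against 68.4, 44.8 and 57.1 TPM after vehicle (0.52 ± 0.14). Lyz2, the lysozyme of macrophages, was 1311 to 1347 TPM after daily prednisone, against 968 to 1220.4 TPM after vehicle. The daily libraries were tight and vehicle library 1 was the highest vehicle library for all 3 genes. Summed over the macrophage markers, vehicle library 1 held 4026 TPM, above the daily libraries at 3822 to 3865 TPM, while vehicle libraries 2 and 3 held 2949.7 and 3220.0 TPM. Cd163, a hemoglobin scavenger receptor that glucocorticoids induce, stood at 15.5 to 17.7 TPM in daily, 27.5 to 32.3 TPM in weekly and 11.4 to 14.5 TPM in vehicle libraries. It was called between daily and weekly (−0.84, limma adjusted p 0.018) and not between daily and vehicle (0.35 ± 0.11, 0.357).

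Antigen presentation genes mostly had negative differences, with 0 called. Of 20 tested 0 were higher and 4 lower at an unadjusted p under 0.05, with a median of −0.13, or −0.08 with mitochondrial genome genes removed. H2-Eb1, a chain of MHC class II, stood at 463, 483 and 460.1 TPM in daily libraries, against 641, 540.2 and 569 TPM in vehicle libraries (−0.31 ± 0.07, limma adjusted p 0.314). H2-Aa, another class II chain, was 638 to 659 TPM after daily prednisone, against 715 to 864 TPM after vehicle. Summed over the list, daily libraries held 9742 to 10000.3 TPM and vehicle libraries 10605 to 11166 TPM, without overlap. Cxcl13, a chemokine that attracts B cells, was 7.59 to 8.81 TPM after daily prednisone, against 16.6 to 17.8 TPM after vehicle (limma adjusted p 0.384), and its weekly libraries ranged between 7.78 and 26.9 TPM. Of 25 inflammatory cytokines and chemokines 0 were higher and 4 lower at an unadjusted p under 0.05, with a median of −0.02 that turned positive with mitochondrial genome genes removed and without daily library 2 or vehicle library 1. The B cell receptor gene Cd79a was at least 9.51 TPM in daily libraries 1 and 3 and 3.21 TPM in daily library 2, against 2.81 to 3.59 TPM in vehicle libraries.

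**Figure D5:**
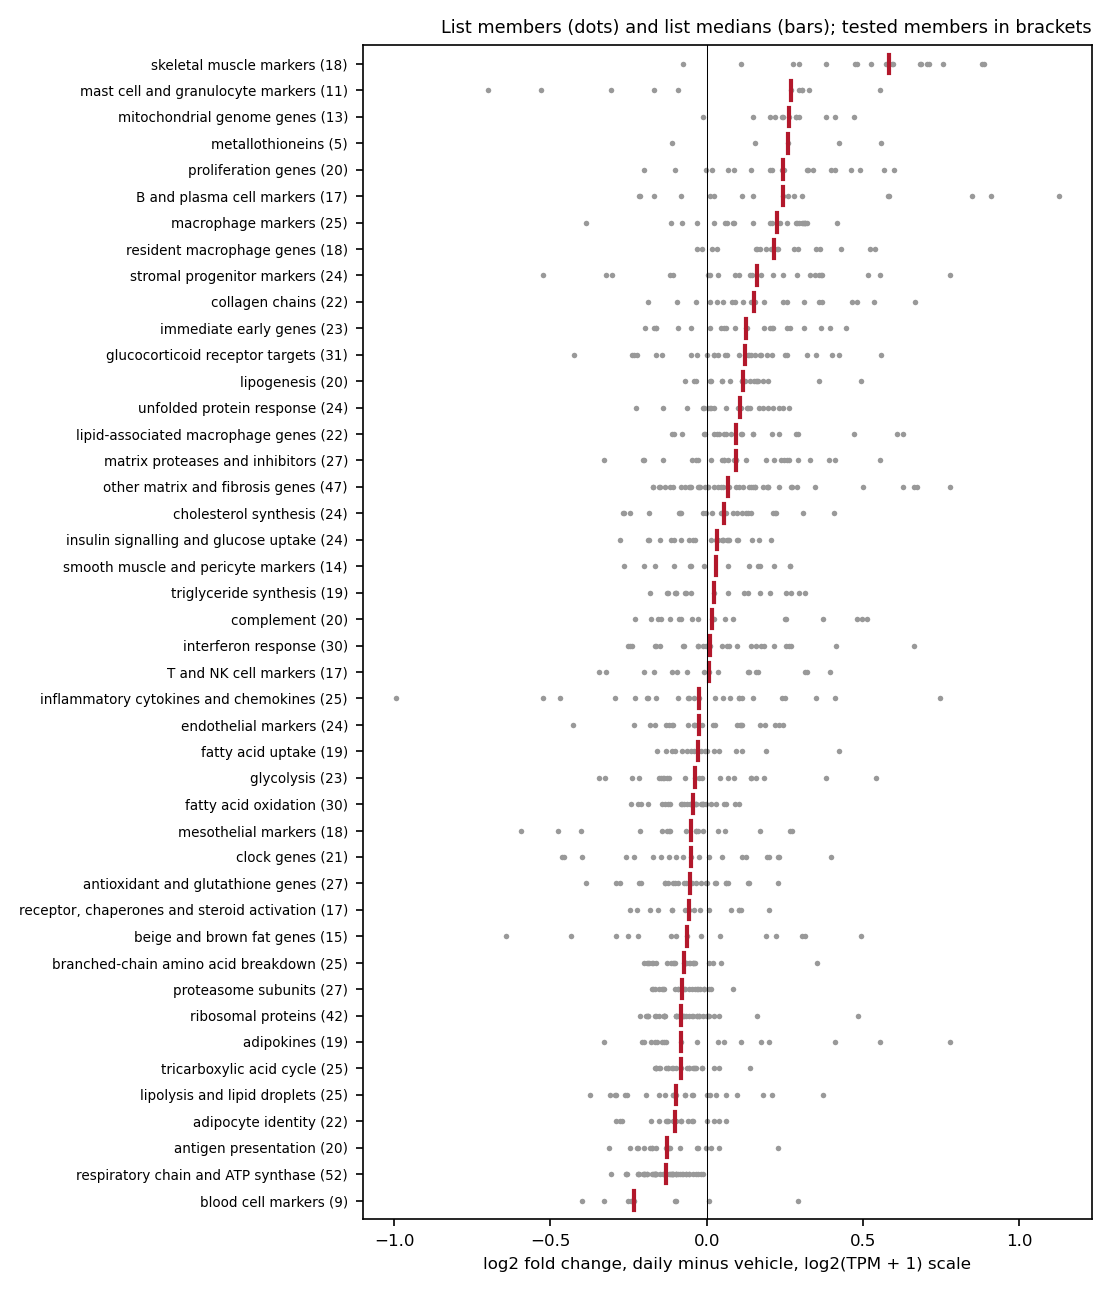
Log2 fold change (daily minus vehicle) of each tested member of the lists with at least 5 tested members (grey dots) and the list median (red bar), ordered by median. All 52 respiratory chain and ATP synthase genes lie left of 0 and 12 of 13 mitochondrial genome genes lie right of it, while skeletal muscle markers, at 0.58, follow daily library 2.

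The daily difference in fat was set against that in quadriceps of the same mice, over 11737 genes tested in both tissues. It differed between tissues for 6 genes (0.0511%), with 2 more positive and 4 more negative in adipose tissue. mt-Atp6 was one, at 0.47 ± 0.07 in adipose tissue and −0.35 ± 0.07 in quadriceps (adipose minus muscle 0.82 ± 0.10, limma adjusted p 0.0441). Adamtsl5 was the other positive one, at 0.50 ± 0.13 in adipose tissue and −0.58 ± 0.07 in quadriceps. The 4 negative ones, Spp1 (osteopontin), Myl4 (an embryonic myosin light chain), Dclk1 and Tubb2b, had adipose values of −0.15 to 0.32 and quadriceps values of 1.40 to 2.95. With TMM scaling the test gave 8 genes, 0 positive and 8 negative.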

How the data were processed

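Per the labels' protocols, stranded mRNA libraries were prepared from total RNA isolated by Trizol and column purification. The deposited table holds the authors' TPM values for 105129 transcripts, which fix the sum of each library and keep no read counts, so depth is unknown and the spread between mice is the only measure of error. Trimmomatic, HISAT2, kallisto and mm10 are named in the submitters' processing notes without version or role. TPM was summed per symbol to 33641 genes, of which 17279 had 1 transcript. Genes at 1 TPM or more in at least 3 adipose libraries were fitted as log2(TPM + 1) with limma 3.58.1 in R 4.3.3 over the 9 adipose libraries, with 6 residual degrees of freedom, after the code was tested on simulated data. Log2 fold changes understate the change of low genes. P-values were two-sided, adjusted with Benjamini-Hochberg and called at 0.05. An exact permutation test of 3 against 3 cannot go below 0.1 and was not used. Tissues were compared through each mouse's adipose minus muscle difference, matched by the number in the labels.

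The text names the 12 genes per direction with the smallest p whose groups did not overlap and whose mean over the 6 libraries was at least 5 TPM, a panel of 25 genes, and, from each of 44 lists with at least 5 tested members, the 3 genes of smallest p. Predicted genes and antigen receptor segments were not named. The genes, lists and tests were chosen with earlier results of these data known. Genes of called comparisons other than daily against vehicle, S100a8 as the motif holder and the Usf1 transcript were named after their values were seen.

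Replicate numbers were not taken to pair mice of different groups in the main fit. Residuals of same-numbered daily and vehicle libraries correlated at 0.061, 0.0127 and −0.0188. Those of daily and weekly libraries correlated at 0.0944, 0.192 and −0.0632, and those of weekly and vehicle libraries at 0.0295, 0.00785 and 0.0533. Such correlations cannot show whether same-numbered mice shared a batch. Nothing in the labels says whether mice were housed or processed together. Alternatives were other scalings, pseudocounts, filters, weights, priors, sets of libraries, a covariate and a replicate block. Removal of mitochondrial genome genes was added after seeing the data. Positions are from GENCODE M21 on GRCm38, which matched 98.6% of transcript identifiers, and promoters from RefSeq on GRCm38.p6. Figures used matplotlib 3.10.9 in Python 3.11.15.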

Additional observations from a re-analysis of the deposited data

Results flagged for a closer look

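The daily difference of mt-Atp6 in adipose tissue exceeded that in quadriceps by 0.82 on the log2 scale, by a test of the difference itself (limma adjusted p 0.0441). It was 0.47 ± 0.07 in adipose tissue, where it was not called, and −0.35 ± 0.07 in quadriceps (SE). With a replicate block 0 genes passed in this test. No gene was called as more positive in adipose tissue with TMM scaling or a pseudocount of 0.1, so mt-Atp6 lost its call there. The same held without any 1 vehicle mouse, without weekly mouse 3, without daily mouse 1 or 3, and without mouse 3 of every group. The median tissue difference over all genes was 0.09, with 68.0% positive, and 0.005 with TMM scaling.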

How the results depend on the processing

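Thbs1 kept its direction in all 24 alternatives, which leaving out libraries could not change, because its groups did not overlap. The count of 1 gene between daily and vehicle stayed 1 with TMM scaling, quantile normalization, a robust prior, a skeletal muscle covariate and mitochondrial genome genes removed, each time Thbs1. It was 1 other gene without a filter and 1 transcript, of Usf1, with transcripts in place of genes. It was 0 with a pseudocount of 0.1 or 5, a minimum log2 fold change of 1, a replicate block, or library 3 of every adipose group left out. It was 2 with a filter at 5 TPM, 3 with only the 6 libraries compared, 12 with all 18 libraries, 8 without the 3 libraries rich in muscle transcripts, and 2820 with array weights, whose estimation did not converge. Leaving out 1 library gave 0 to 14, with 14 without vehicle library 1, 3 without daily library 2 and 0 without daily library 1 or 3.

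Daily against weekly gave 14 genes with TMM scaling, 72 with a filter at 5 TPM, 12 with the replicate block, 0 with library 3 of each group left out and 2 to 47 with 1 library left out. Weekly against vehicle gave 1 with library 3 of each group left out and 64 to 1511 with 1 left out. TMM scaling moved its split to 458 higher and 658 lower, beside 809 and 243. The tissue difference gave 2 and 24 with pseudocounts of 0.1 and 5, 18 with the 5 TPM filter, 0 with the block, 0 with mouse 3 of each group left out and 0 to 9 with 1 mouse left out. With the replicate block the adjusted p of Thbs1 was 0.0741 and 0 genes were called, while 1302 had an unadjusted p under 0.05.

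Small differences changed sign. Under quantile normalization these were Adipoq (0.040), Angptl4 (0.085), Gpd1 (0.024), Lipe (0.038), Pnpla2 (0.083) and Pparg (0.010). With mitochondrial genome genes removed they were Angptl4 (0.021), Nr3c1 (0.011) and Pnpla2 (0.0082). Nr3c1 was 0.019 with the muscle covariate, 0.040 without muscle-rich libraries and −0.12 to 0.040 with 1 library left out, where Klf9 ranged between −0.049 and 0.12 and Per1 between −0.23 and 0.083. Of 3781 values of 158 named genes 3610 kept direction and call, 144 became called, 12 lost a call and 15 reversed. Most of the 144 came with array weights, the setting that called 2820 genes and whose estimation did not converge. The cause of the sign changes was not tested. TPM keeps no depth, so precision rests on 3 mice a group.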

Other observations

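A noncoding transcript of Usf1, an E-box transcription factor of lipid genes, was the 1 transcript called between daily and vehicle when transcripts replaced genes. ENSMUST00000161297.7, annotated as a processed transcript, was listed at 0, 0 and 0.00107 TPM in daily libraries, at 3.53, 4.46 and 4.15 TPM in weekly libraries and at 8.61, 12.1 and 8.03 TPM in vehicle libraries (limma adjusted p 0.00171). The 3 groups did not overlap. Summed over its 10 transcripts, Usf1 stood at 46.6, 57.5 and 53.0 TPM in daily, 62.9, 51.8 and 60.8 TPM in weekly and 53.7, 72.3 and 62.0 TPM in vehicle libraries, with overlap. Assignment of reads among overlapping transcripts of a gene is an estimate, and its part in the result was not tested.

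Between daily and weekly prednisone 42 of the 44 genes called had less transcript after the daily regimen. With TMM scaling 3 were higher and 11 lower, and at an unadjusted p under 0.05 the split was 950 higher and 890 lower, beside 218 and 2024 without it. Fn1, the matrix protein fibronectin, averaged 153 TPM after daily and 284 TPM after weekly prednisone, beside 133 TPM after vehicle (n = 3 each; limma adjusted p 0.018 for daily against weekly). Lyve1, a hyaluronan receptor of lymphatics and resident macrophages, averaged 9.26 ± 0.522 TPM after daily, 19.7 ± 2.97 TPM after weekly prednisone and 7.79 ± 0.960 TPM after vehicle (SD, n = 3 each). Tppp3 averaged 74.8 ± 9.69 TPM after daily, 187.8 ± 9.79 TPM after weekly prednisone and 85.2 ± 12.9 TPM after vehicle. For these 3 genes daily and vehicle were not called apart.

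Among 67 tested antigen receptor segments 7 were higher and 3 lower at an unadjusted p under 0.05 between daily and vehicle, and 0 were called. Their summed level was 327, 299 and 277 TPM in daily libraries and 286.5, 162 and 242 TPM in vehicle libraries, with overlap. At the same unadjusted p, of the 24 tested genes of the unfolded protein response 5 were higher and 1 lower. Of 23 immediate early genes 5 were higher and 1 lower, of 20 proliferation genes 4 and 0, and of 42 ribosomal protein genes 1 and 1. Over all genes tested the shares at that p were 4.47% higher and 4.76% lower. The lower counts and both counts of ribosomal protein genes lay near or below these shares. The other higher counts lay above them, and 0 genes of these lists were called.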
